A study of Mus musculus with 656 samples.

Results

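The genes described here are 9 members of the JAK-STAT pathway downstream of gp130: the receptor chains Il6st, Lifr and Osmr, the kinase Jak1, the transcription factor Stat3, the feedback inhibitors Socs2 and Socs3, and the target kinases Pim1 and Pim3. They were chosen by name, with earlier results of these data known, so counts of their calls beside the share of all genes are descriptions. Each of the 9 symbols matched 1 of the 22070 Ensembl genes in the count table. All 9 passed the filter on low counts that left 10766 genes in the tests. The members share no sequence or target by design, but Socs2 with Socs3 and Pim1 with Pim3 are paralogs, and Il6st, Lifr and Osmr belong to the same receptor family.

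Cytokines such as interleukin 6 (Il6) and leukemia inhibitory factor (Lif) signal through gp130, the product of Il6st, alone or paired with a second chain such as the Lif receptor (Lifr) or the oncostatin M receptor (Osmr). Receptor-bound Janus kinases, among them Jak1, phosphorylate Stat3, which then enters the nucleus and switches on genes that include Socs3 and the Pim kinases. Socs3 binds gp130 and Jak1 and shuts the signal off, so it works as a feedback inhibitor, and Pim1 and Pim3 are serine/threonine kinases that favour survival and growth. In fibroblasts the same pathway is known for amplifying the inflammatory response that interleukin 1β (IL-1β) and tumor necrosis factor α (TNF-α) start through NF-κB.

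The study measured 3T3 cells, an established mouse embryonic fibroblast line, by TagSeq, which counts reads near the 3′ end of polyadenylated RNA. It asked how SC-514, an inhibitor of the NF-κB-activating kinase IKKβ, changes the transcription that follows 2 stimuli. Cells received SC-514 at 0, 25, 50 or 100 µM for 1 h. A stimulus followed for 15, 30, 60, 120 or 360 min. IL-1β was given at 1 ng/ml, and TNF-α, in its own groups, at 10 ng/ml. The groups are therefore 20 with IL-1β (4 concentrations at 5 times), 20 with TNF-α, and 1 unstimulated group with neither agent at time 0, each with 4 libraries. No group had SC-514 alone, the labels name no vehicle, and there is no unstimulated group at later times, so an effect of SC-514 on resting cells or of time in culture cannot be told apart from an effect on the stimulated response. The number at the start of the sample titles and that of the matching library names in the descriptions disagree between the stimuli. The stimulus label was followed, and the libraries are those labelled IL-1β or TNF-α. If that label is the wrong one, the stimuli are exchanged, and every difference of IL-1β minus TNF-α has the opposite sign. The labels do not state whether the 4 libraries of each group are separate cultures, and p-values therefore measure only the spread between libraries, which may be technical.

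Of the libraries, 162 held 928906 to 2469454 counts. Library 1 of 50 µM SC-514 with IL-1β at 30 min held 12191 counts and library 1 of 50 µM SC-514 with TNF-α at 120 min held 3839 counts. These libraries stayed in the tests, where their weight is small, but their levels are not drawn. Over the 500 genes whose group means varied most, 3 other libraries lay farthest from the mean of their own group, with a root mean square log2 distance of 0.92 for library 4 of TNF-α without SC-514 at 15 min, 0.795 for library 1 of 25 µM with IL-1β at 360 min and 0.685 for library 4 of 25 µM with IL-1β at 30 min, against at most 0.57 in the others. Library 1 of 100 µM with IL-1β at 120 and at 360 min showed counts in 14634 and 15303 genes, against 13170 to 13529 in the other libraries of those groups. Where a result named below uses one of these libraries and its call changes without them, both values are given. Of 11 fibroblast markers, 10 passed the filter (Col1a1, a collagen chain of fibroblasts, had 674 to 1189 CPM over the libraries) and Lum had 4 counts in all. Of 8 leukocyte markers 2 passed, Cd68 and Lyz2, each with at most 13.0 CPM. Pecam1 of 4 endothelial markers passed, with at most 20.4 CPM, and so did Des of 3 muscle markers, with at most 22.0 CPM, while 0 of 5 epithelial markers passed. These marker levels are counts scaled to library size alone (CPM). Levels of the members and other pathway genes are read counts scaled to a common library size with TMM factors (CPM), and in cell populations like these a lower level from fewer expressing cells cannot be told apart from less RNA per cell.

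Socs3, Pim1 and Pim3 were called after both stimuli, and the effect of SC-514 on Osmr differed between the labels at 360 min. For this reason their promoter windows from RefSeq (250 bases before to 50 after a transcription start, GRCm38.p6, read along the gene's strand) are shown. Windows were found for 8 of the 9 members, 10 in all. The member without a window was Socs2, which was also called after both stimuli, at 120 min. Both strands were searched for the STAT motif TTCNNNGAA, the AP-1 motif TGANTCA and the κB consensus, with no overlap among the matches, and matches are in capitals. The Socs3 window lies at chr11:117969317-117969616, minus strand.
Socs3: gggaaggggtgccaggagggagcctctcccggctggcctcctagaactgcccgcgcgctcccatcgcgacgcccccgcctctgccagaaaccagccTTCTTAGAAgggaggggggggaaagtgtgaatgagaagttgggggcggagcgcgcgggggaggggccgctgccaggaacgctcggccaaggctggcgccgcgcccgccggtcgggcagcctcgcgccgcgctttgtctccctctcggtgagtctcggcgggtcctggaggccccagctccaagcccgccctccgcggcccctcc
Its capitals mark a STAT match 154 bases before the start, a motif found in 8.29% of 32817 promoter windows, and it was the 1 STAT match among the 10 windows. The annotated start of the nearest coding transcript of Socs3 lies 180 bases downstream of the window's start. For the windows of Pim1, Pim3 and Osmr shown next, it lies 32, 8 and 656 bases upstream. The first Pim1 window lies at chr17:29490535-29490834, plus strand, and held none of the 3 motifs.
Pim1: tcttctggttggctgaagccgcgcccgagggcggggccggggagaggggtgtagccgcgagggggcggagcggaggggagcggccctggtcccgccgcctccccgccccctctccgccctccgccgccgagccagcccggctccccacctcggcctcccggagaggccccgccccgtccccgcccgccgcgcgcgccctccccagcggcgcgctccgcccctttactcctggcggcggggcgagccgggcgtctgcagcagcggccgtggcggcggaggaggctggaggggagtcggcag
The Pim3 window lies at chr15:88861944-88862243, plus strand.
Pim3: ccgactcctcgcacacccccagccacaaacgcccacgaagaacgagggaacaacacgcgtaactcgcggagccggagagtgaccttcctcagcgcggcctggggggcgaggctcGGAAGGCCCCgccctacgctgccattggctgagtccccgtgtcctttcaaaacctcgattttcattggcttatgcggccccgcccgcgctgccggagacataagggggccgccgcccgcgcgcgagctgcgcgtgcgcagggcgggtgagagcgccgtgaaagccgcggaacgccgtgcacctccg
Its capitals mark a κB match on the other strand 136 bases before the start, found in 8.46% of windows. The Osmr window lies at chr15:6874264-6874563, minus strand.
Osmr: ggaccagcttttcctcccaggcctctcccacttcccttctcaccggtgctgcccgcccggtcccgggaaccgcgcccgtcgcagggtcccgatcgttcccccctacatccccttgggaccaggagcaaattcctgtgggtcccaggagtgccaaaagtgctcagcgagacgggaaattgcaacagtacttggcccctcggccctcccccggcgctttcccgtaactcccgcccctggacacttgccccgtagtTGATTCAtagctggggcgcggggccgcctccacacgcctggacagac
Its capitals mark an AP-1 match 3 bases after the start, found in 7.81% of windows. The windows of Il6st, Lifr, Jak1 and Stat3 held none of the 3 motifs. A match describes the letters and not a site in use.

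Stimulation without SC-514 raised Pim1 and Pim3 at 60 min under both labels, with Socs3 beside them. Of the 3 receptor chains, Osmr alone was called, at 120 min with TNF-α. Over the 45 member-by-time tests against unstimulated cells, 10 were higher and 1 lower with IL-1β, where 4.80% of all gene-by-time tests were higher and 2.93% lower at an adjusted p under 0.05 (edgeR quasi-likelihood test, Benjamini-Hochberg). With TNF-α 8 were higher, against 3.51% of all gene-by-time tests, and 0 were lower, against 1.67%. At an unadjusted p under 0.05, 1 member-by-time test was lower with TNF-α, and DESeq2 called 0. Both comparisons use the same 4 unstimulated libraries, so their values are given side by side.

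Of the receptor chains, Il6st, the shared signal-transducing chain, had 222, 185, 174 and 153 CPM after 60 min of IL-1β, against 172, 187, 169 and 160 CPM in unstimulated libraries. TNF-α at 60 min gave 173, 197, 146 and 188 CPM. The groups overlapped at all 5 times under both labels, and log2 changes of Il6st lay between -0.09 and 0.13 with 0 called. Lifr did not pass the test at any time either, with 4 libraries at 63.3 to 114 CPM after 60 min of IL-1β against 70.2 to 96.0 CPM unstimulated. Osmr, the chain that binds oncostatin M, had 140, 150, 131 and 147 CPM after 120 min of TNF-α, against 115, 103, 95.2 and 107 CPM unstimulated. Those groups did not overlap, and Osmr was 0.43 ± 0.15 higher on the log2 scale (SE, adjusted p = 0.0308, edgeR quasi-likelihood test). That call was lost with RLE factors, with DESeq2 and without libraries numbered 2, 3 or 4.

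Jak1, the kinase bound to these chains, had 215, 212, 204 and 217 CPM after 360 min of IL-1β, against 160, 156, 174 and 180 CPM unstimulated. Every IL-1β library at 360 min lay above every unstimulated one (log2 change 0.34 ± 0.08 SE, adjusted p = 0.000879, edgeR). After 360 min of TNF-α Jak1 had 214, 236, 171 and 180 CPM, which overlapped the unstimulated libraries (0.26 ± 0.09, adjusted p = 0.0521, edgeR). Stat3, the transcription factor, had 343, 333, 319 and 335 CPM after 120 min of IL-1β, against 286, 288, 275 and 277 CPM unstimulated. The groups did not overlap and the change was small, 0.24 ± 0.07 on the log2 scale (adjusted p = 0.0169, edgeR). DESeq2 did not call it: of the 4 members that edgeR called higher at 120 min with IL-1β, DESeq2 called 1, Pim1. With TNF-α, Stat3 changed by -0.10 to 0.08 with 0 of 5 times called.

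Socs3, the gp130 feedback inhibitor, had 114, 107, 137 and 132 CPM after 60 min of IL-1β, against 63.5, 66.6, 63.2 and 71.0 CPM in unstimulated libraries. After 60 min of TNF-α it had 162, 170, 169 and 212 CPM. Neither stimulated group overlapped the unstimulated one. Socs3 was 1.85-fold higher with IL-1β (log2 change 0.89 ± 0.26 SE, adjusted p = 0.0293, edgeR) and 2.70-fold higher with TNF-α (1.43 ± 0.25, adjusted p = 7.53e-06, edgeR). The IL-1β call was lost with DESeq2 and without any 1 of the 4 library numbers. At 120 min Socs3 stayed 0.94 ± 0.26 above the unstimulated level with TNF-α (adjusted p = 0.00672, edgeR), while with IL-1β the difference was 0.29 ± 0.27 (adjusted p = 0.573, edgeR).

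Socs2, a related inhibitor known for damping growth hormone signals, was the least abundant member in unstimulated cells at 23.9 ± 2.85 CPM (SD, n = 4). It had 47.5, 47.1, 28.9 and 30.0 CPM after 120 min of IL-1β and 24.0, 43.6, 47.8 and 44.6 CPM after 120 min of TNF-α, against 25.3, 26.8, 23.6 and 20.2 CPM unstimulated. The IL-1β libraries all lay above the unstimulated ones, and 1 TNF-α library did not. The log2 changes were 0.68 ± 0.22 with IL-1β (adjusted p = 0.0251) and 0.72 ± 0.23 with TNF-α (adjusted p = 0.0201, edgeR). At 360 min Socs2 had 6.63, 18.1, 15.1 and 16.7 CPM with IL-1β, all below the unstimulated libraries (-0.76 ± 0.28, adjusted p = 0.0373, edgeR). With TNF-α at 360 min it had 16.1, 13.1, 21.4 and 12.4 CPM (-0.60 ± 0.28, adjusted p = 0.23, edgeR). Each of these Socs2 calls was lost when 3 of the library numbers were left out one at a time.

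Pim1, a serine/threonine kinase and known STAT target, had 295, 221, 270 and 268 CPM after 60 min of IL-1β and 385, 382, 364 and 310 CPM after 60 min of TNF-α, against 39.0, 44.9, 46.3 and 46.0 CPM in unstimulated libraries. Every stimulated library lay far above every unstimulated one. Pim1 was 5.99-fold higher with IL-1β (log2 change 2.58 ± 0.16 SE, adjusted p = 3.57e-30, edgeR) and 8.20-fold higher with TNF-α (3.04 ± 0.16, adjusted p = 7.17e-37, edgeR). It was already higher at 30 min, by 0.82 ± 0.18 with IL-1β (adjusted p = 0.00356) and 1.07 ± 0.18 with TNF-α (adjusted p = 6.64e-06, edgeR). At 120 min it was 4.05-fold higher with IL-1β and 4.43-fold higher with TNF-α. At 360 min Pim1 remained 1.80-fold higher with IL-1β (89.5, 70.9, 76.1 and 80.2 CPM, adjusted p = 0.000125, edgeR), whereas with TNF-α it had 60.4, 69.5, 51.5 and 54.4 CPM (1.34-fold, adjusted p = 0.227, edgeR). Pim3, its paralog, rose less at 60 min, to 97.9, 87.9, 110 and 96.3 CPM with IL-1β and 107, 94.2, 126 and 132 CPM with TNF-α, against 54.1, 63.1, 73.3 and 52.4 CPM unstimulated. These groups did not overlap (0.70 ± 0.13 with IL-1β, adjusted p = 2.24e-05; 0.92 ± 0.13 with TNF-α, adjusted p = 6.44e-09, edgeR). At 120 min Pim3 was still higher with IL-1β (0.41 ± 0.13, adjusted p = 0.0264, edgeR) and was -0.06 ± 0.14 from the unstimulated level with TNF-α. That IL-1β call was lost with DESeq2 and without library number 1 or 4.

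**Figure D1:**
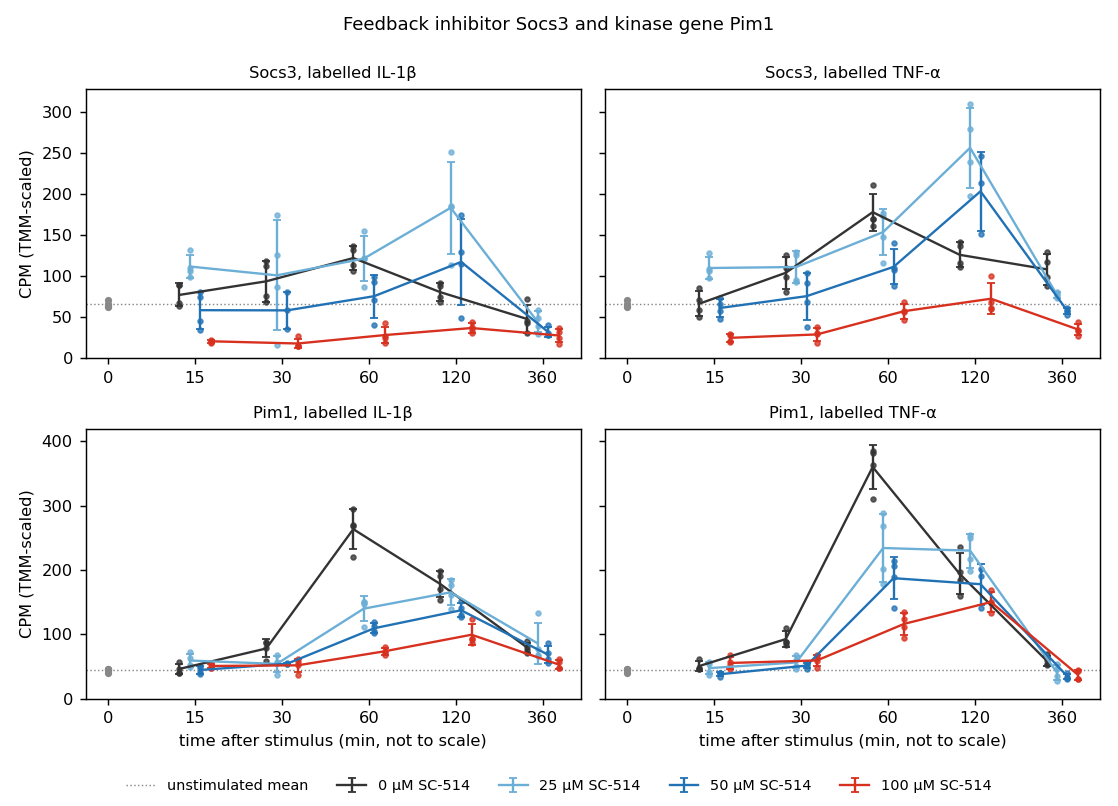
Level of Socs3 and Pim1 (CPM, TMM-scaled, vertical axes) against minutes of stimulation for each SC-514 concentration, with IL-1β and TNF-α in separate panels; points are libraries without the 2 shallow ones, lines join means ± SD and the dotted line is the unstimulated mean. Pim1 without SC-514 peaked at 60 min at 221 to 295 CPM with IL-1β and 310 to 385 CPM with TNF-α, and Socs3 at 100 µM stayed lowest from 15 to 120 min.

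SC-514 at 100 µM moved the members in opposite directions: Socs3, Pim1 and Stat3 were lower, and Il6st, Lifr and Socs2 were higher, than without the inhibitor at the times that passed the test. With IL-1β, 13 of 45 member-by-time tests were higher and 13 lower, where 12.2% of all gene-by-time tests were higher and 14.5% lower (edgeR, adjusted p under 0.05). With TNF-α, 7 were higher and 13 lower, against 9.45% higher and 13.6% lower over all genes. The median log2 change of the 9 members lay between -0.26 and 0.18 at all times under both labels, and that of all genes tested was at most 0.04.

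Socs3 fell the most. At 30 min, 100 µM SC-514 with IL-1β left 27.1, 14.6, 15.6 and 15.5 CPM of Socs3, against 118, 76.0, 112 and 69.4 CPM with IL-1β and no inhibitor. At 30 min with TNF-α it left 29.6, 30.5, 18.4 and 38.5 CPM, against 80.8, 111, 99.6 and 126 CPM. The groups did not overlap under either label, and Socs3 fell to 0.194 of its uninhibited level with IL-1β (log2 change -2.37 ± 0.35, adjusted p = 3.66e-08, edgeR) and to 0.283 with TNF-α (-1.82 ± 0.31, adjusted p = 1.23e-06, edgeR). The fall was called at 15, 30, 60 and 120 min under both labels and at 360 min with TNF-α. At 360 min with IL-1β the change was -0.77 ± 0.36 (adjusted p = 0.0966, edgeR) and the groups overlapped.

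With 100 µM SC-514, Socs3 also went below the unstimulated level of 63.2 to 71.0 CPM. At 15 min it had 22.9, 20.6, 21.2 and 18.9 CPM with IL-1β (log2 change against unstimulated -1.66 ± 0.35, adjusted p = 9.93e-05) and 30.2, 21.5, 20.3 and 28.3 CPM with TNF-α (-1.38 ± 0.32, adjusted p = 0.000584, edgeR). Pim1 did not share this: at 15 min it had 47.9, 52.6, 47.3 and 54.7 CPM with 100 µM and IL-1β, against 39.0 to 46.3 CPM unstimulated (0.21 ± 0.19, adjusted p = 0.477, edgeR). Against unstimulated cells, 19 of 45 member-by-time tests were higher and 5 lower with 100 µM and IL-1β, where 11.7% and 12.4% of all gene-by-time tests were. With 100 µM and TNF-α 16 were higher and 8 lower, where 10.9% and 12.7% were. The 5 lower calls with IL-1β were Socs3 at 4 times and Stat3 at 360 min, and the 8 with TNF-α were Stat3 at 5 times and Socs3 at 3 times. The 19 higher calls with IL-1β were Il6st at 5 times, Lifr and Socs2 at 4 each, Pim3 at 3, Pim1 at 2 and Osmr at 1. The 16 with TNF-α were Il6st and Socs2 at 4 times each, Pim3 at 3, Pim1 and Jak1 at 2 each and Lifr at 1.

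Pim1 at 60 min had 67.5, 80.6, 72.9 and 73.0 CPM with 100 µM SC-514 and IL-1β, against 295, 221, 270 and 268 CPM with IL-1β and no inhibitor. With TNF-α it had 124, 135, 112 and 94.1 CPM at 100 µM, against 385, 382, 364 and 310 CPM. The groups were far apart, and Pim1 fell to 0.278 of the uninhibited level with IL-1β (log2 change -1.85 ± 0.15, adjusted p = 1.52e-21) and to 0.319 with TNF-α (-1.65 ± 0.13, adjusted p = 3.94e-21, edgeR). It remained above the unstimulated level at 60 min, 1.67-fold with IL-1β (adjusted p = 0.00137) and 2.61-fold with TNF-α (adjusted p = 2.14e-11, edgeR). Pim1 was also lower with 100 µM at 30, 120 and 360 min under both labels, by 0.37 to 0.84 on the log2 scale. The TNF-α call at 120 min was lost with RLE factors, with DESeq2 and without library number 1 or 2. With IL-1β the call at 30 min was lost without number 3 and that at 360 min without number 4. The TNF-α call at 360 min was lost without number 2. Pim3 did not fall at 60 min: it had 92.4, 103, 78.5 and 100 CPM with 100 µM and IL-1β, against 97.9, 87.9, 110 and 96.3 CPM without (-0.06 ± 0.12, adjusted p = 0.752, edgeR). With TNF-α at 120 min Pim3 had 90.5, 83.9, 99.9 and 92.7 CPM at 100 µM, against 63.7, 50.9, 52.0 and 63.8 CPM without the inhibitor. Those groups did not overlap and Pim3 was higher by 0.67 ± 0.13 (adjusted p = 1.24e-05, edgeR).

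Stat3 had 169, 172, 171 and 166 CPM after 360 min of TNF-α with 100 µM SC-514, against 276, 260, 238 and 277 CPM with TNF-α and no inhibitor. The 4 inhibited libraries all lay below the uninhibited ones (log2 change -0.63 ± 0.08, adjusted p = 8.18e-12, edgeR). With IL-1β at 360 min Stat3 had 251, 263, 224 and 234 CPM at 100 µM, against 288, 332, 284 and 308 CPM (-0.32 ± 0.08, adjusted p = 0.000582, edgeR). Stat3 was lower at 15, 60, 120 and 360 min and did not pass the test at 30 min under either label. Its changes at 15 min and, with IL-1β, at 60 min were lost with RLE factors and with DESeq2. Jak1 was lower with 100 µM and IL-1β at 360 min, at 167, 192, 199 and 163.7 CPM against 215, 212, 204 and 217 CPM (-0.23 ± 0.08, adjusted p = 0.0267, edgeR), and that call was lost in 6 of 11 alternatives, among them that without library 1 of this group (-0.19, adjusted p = 0.122, edgeR). At the other 9 times and labels Jak1 with 100 µM was not called.

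Il6st rose by a small amount with SC-514. At 15 min it had 235, 210, 232 and 213 CPM with 100 µM and IL-1β, against 197, 171, 161 and 146 CPM with IL-1β alone. With TNF-α at 15 min it had 194, 224, 228 and 237 CPM at 100 µM, against 186, 145, 173 and 145 CPM. The groups did not overlap, and the log2 changes were 0.40 ± 0.10 with IL-1β (adjusted p = 0.00128) and 0.44 ± 0.10 with TNF-α (adjusted p = 0.000328, edgeR). Il6st was higher at all 5 times with IL-1β, by 0.26 to 0.43, and at 15 to 120 min with TNF-α, by 0.31 to 0.44. Its calls at 15 min held under all 11 alternatives. With IL-1β the calls at 60, 120 and 360 min were lost in 3, 2 and 1 of these. With TNF-α those at 30, 60 and 120 min were lost in 2 each. Every loss came from leaving out a library number. At 360 min with TNF-α the change was 0.18 ± 0.10 (adjusted p = 0.177, edgeR).

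Lifr had 160, 125, 172 and 131 CPM after 360 min of IL-1β with 100 µM SC-514, against 109, 79.2, 51.9 and 86.1 CPM without the inhibitor. Every inhibited library lay above every uninhibited one (log2 change 0.85 ± 0.20, adjusted p = 0.000417, edgeR). With TNF-α at 120 min Lifr had 93.2, 126, 136 and 147 CPM at 100 µM, against 73.4, 67.5, 78.4 and 63.8 CPM (0.83 ± 0.20, adjusted p = 0.000576, edgeR). Lifr was called at 30, 120 and 360 min with IL-1β and at 120 min with TNF-α. At the other 6 times and labels its log2 change was 0.24 to 0.45 and did not pass the test. Without the 3 farthest libraries, IL-1β at 15 min (0.44, adjusted p = 0.0481) and 60 min (0.46, adjusted p = 0.0393, edgeR) passed. Without library 1 of 100 µM with IL-1β at 120 and 360 min, the change at 360 min was 0.81 (adjusted p = 0.00266, edgeR). The call at 360 min with IL-1β was lost without library number 3.

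Osmr behaved differently by label at 360 min. With IL-1β and 100 µM SC-514 it had 161, 130, 173 and 133 CPM, against 111, 111, 71.1 and 96.9 CPM with IL-1β and no inhibitor (0.62 ± 0.15, adjusted p = 0.000489, edgeR). With TNF-α and 100 µM it had 78.9, 95.5, 138 and 129 CPM, against 124, 142, 117 and 145 CPM (-0.26 ± 0.14, adjusted p = 0.174, edgeR). The IL-1β call was lost without library number 3. The inhibited and uninhibited groups did not overlap with IL-1β and did with TNF-α. The difference between these effects was 0.87 ± 0.20 on the log2 scale at 360 min (adjusted p = 0.00629, edgeR, where 1.98% of all genes were called), and it was lost without library number 2 and without library number 3. Without library 1 of 100 µM with IL-1β at 120 and 360 min it was 0.83 (adjusted p = 0.0155, edgeR). Over the 5 times together the difference in Osmr had an adjusted p of 0.0595 (edgeR F test), and of 0.0378 without the 3 libraries farthest from their groups.

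Socs2 with 100 µM SC-514 had 45.8, 37.3, 48.1 and 39.3 CPM after 15 min of IL-1β, against 25.5, 28.4, 29.1 and 21.5 CPM without the inhibitor. The groups did not overlap (log2 change 0.70 ± 0.22, adjusted p = 0.00925, edgeR). With TNF-α at 15 min Socs2 had 35.5, 49.2, 41.8 and 30.7 CPM, against 14.5, 20.1, 24.1 and 37.2 CPM (0.70 ± 0.22, adjusted p = 0.0123, edgeR), and those groups overlapped through library 4 of TNF-α alone, which stands apart from its group. Without the 3 libraries farthest from their groups the change was 1.00 (adjusted p = 0.000129, edgeR). In the same comparison at 15 min with TNF-α, leaving them out moved Lifr to 0.69 (adjusted p = 0.0101), which was then called, and Socs3 to -1.23 (adjusted p = 0.00251), and Stat3 to -0.21 (adjusted p = 0.057), which was then not called, beside -0.26 with all libraries (adjusted p = 0.00643, edgeR). With IL-1β Socs2 was higher at 15, 30, 60 and 360 min. The change at 360 min was 0.85 (adjusted p = 0.0134) with all libraries and 0.72 (adjusted p = 0.0786, edgeR) without library 1 of 100 µM at 120 and 360 min, and it was also lost without library number 1 or 3. In library 1 at 360 min the 8 leukocyte markers summed to 36.2 CPM, against 9.42 to 14.9 CPM in the other libraries of 100 µM. The 4 endothelial markers summed to 21.2 CPM there, against 1.75 to 6.62 CPM, and the 5 epithelial ones to 5.30 CPM, against 0 CPM. The 3 muscle markers, at 6.18 CPM, lay within the 4.71 to 9.62 CPM of the others. The 11 fibroblast markers summed to 6659 CPM, against 6882 to 7387 CPM. The part of these differences in the result was not tested. At 120 min, when the stimulus alone had raised it, the change of Socs2 was 0.38 ± 0.20 (adjusted p = 0.144, edgeR). With TNF-α at 30 to 360 min the log2 change was 0.34 to 0.55 and did not pass the test, and without the 3 farthest libraries 30 and 60 min passed (0.56, adjusted p = 0.0243, and 0.51, adjusted p = 0.025, edgeR).

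**Figure D2:**
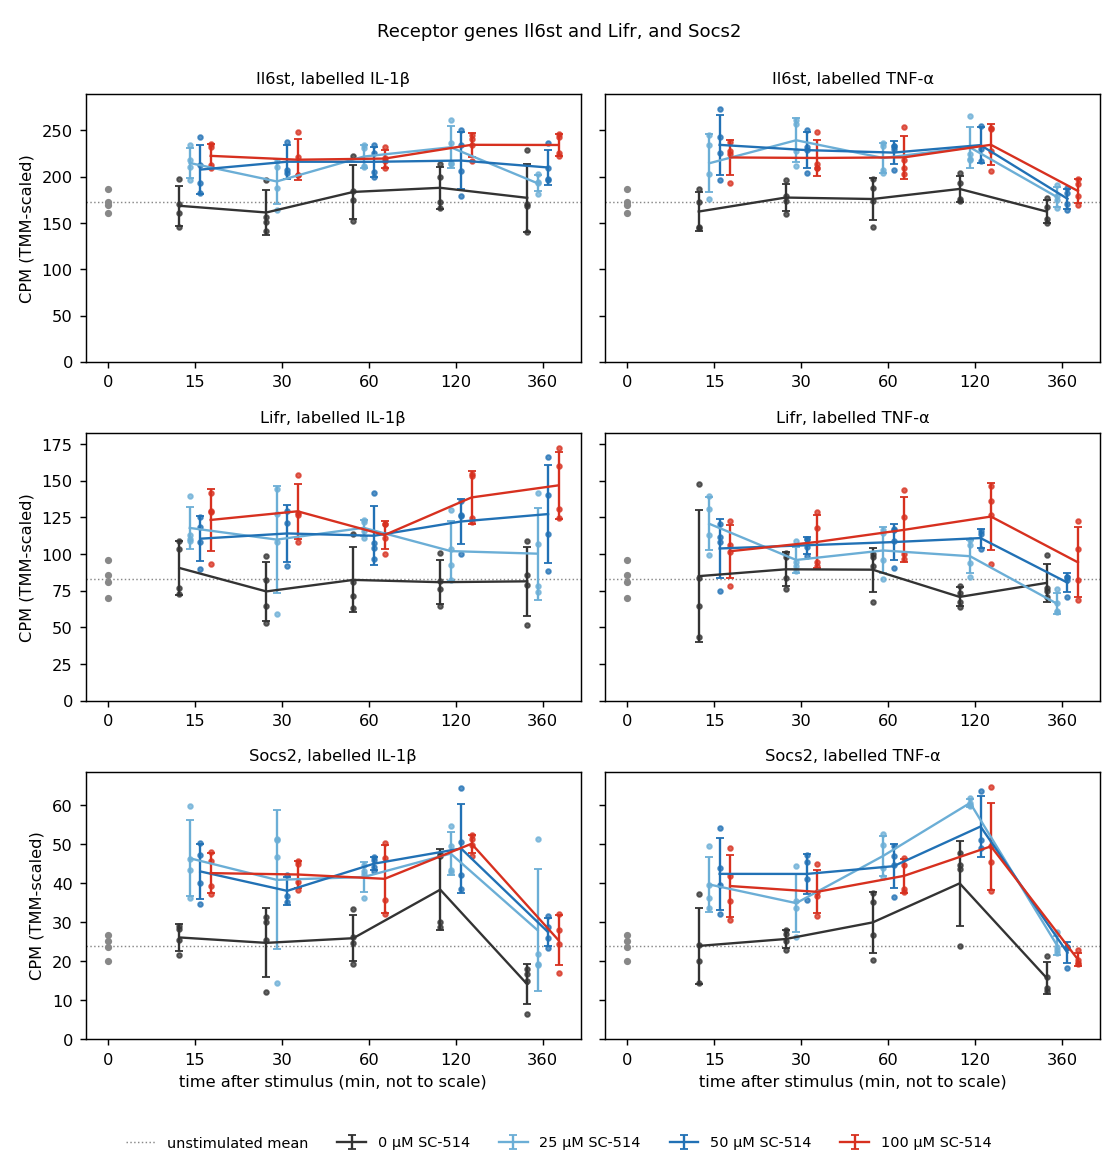
Level of Il6st, Lifr and Socs2 (CPM, TMM-scaled) against minutes of stimulation at each SC-514 concentration under IL-1β and TNF-α; points are libraries without the 2 shallow ones, lines join means ± SD, dotted lines are unstimulated means. The 3 lines of Il6st with inhibitor lie above the line without it from 15 to 120 min under both labels, and Socs2 without inhibitor is lowest at 360 min under both labels.

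**Figure D3:**
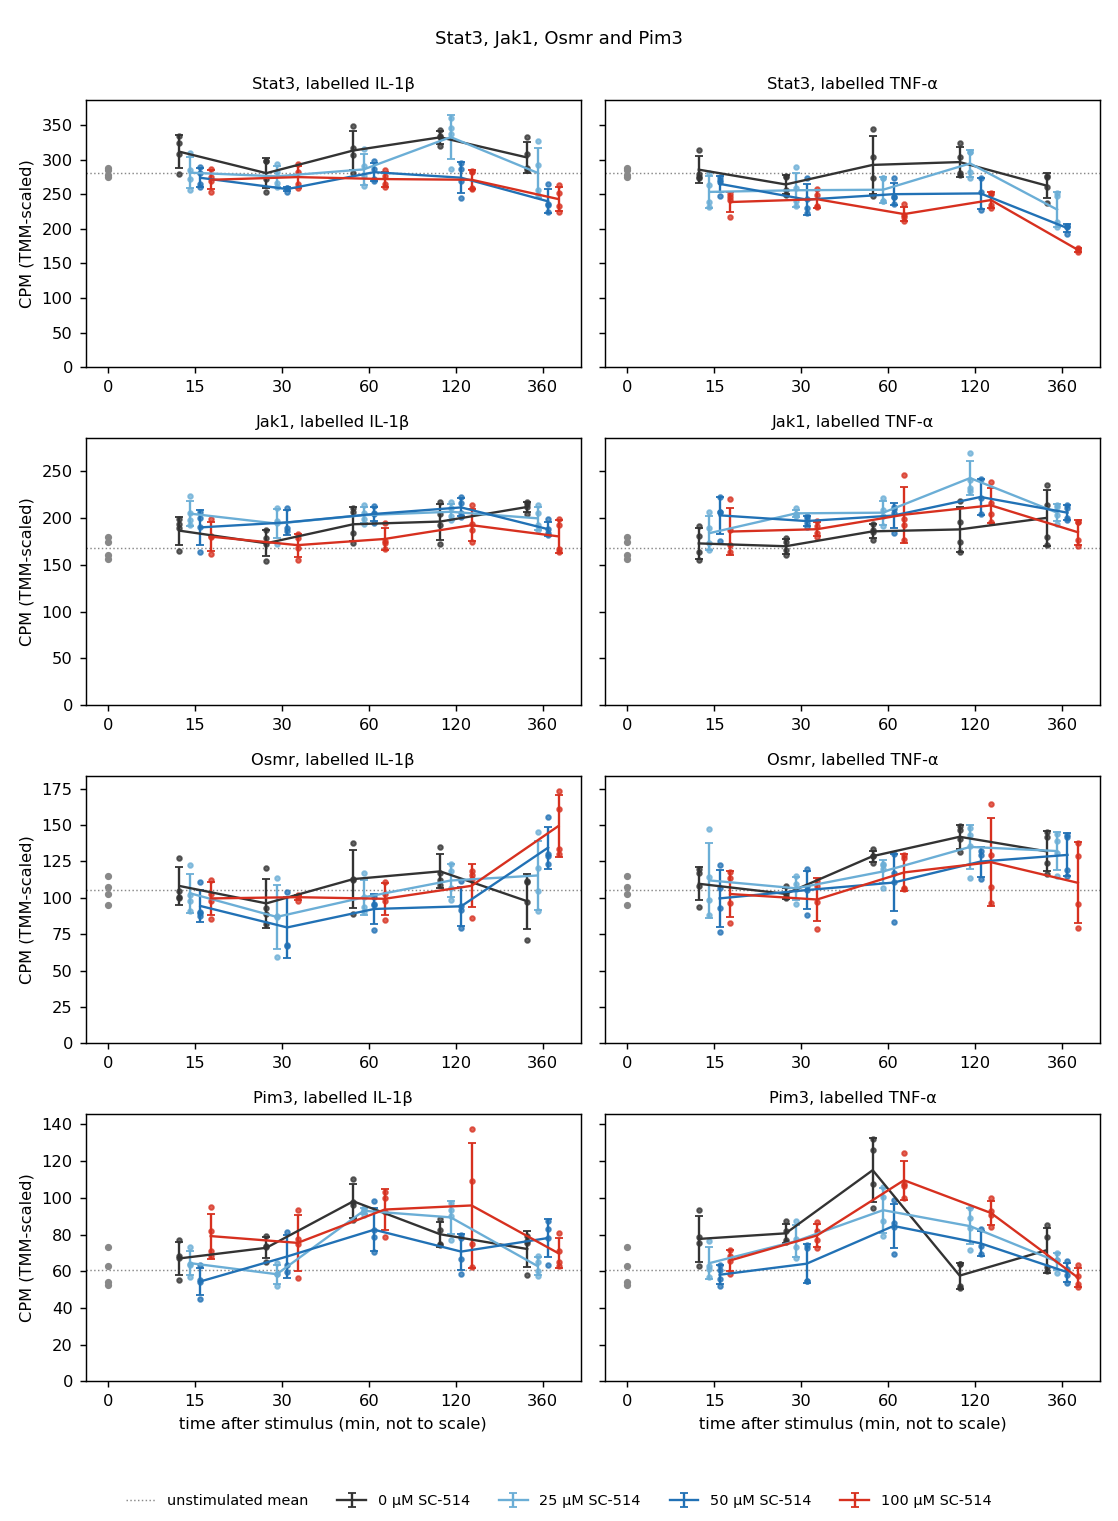
Level of Stat3, Jak1, Osmr and Pim3 (CPM, TMM-scaled) drawn in the same way. Stat3 at 360 min with TNF-α and 100 µM lies at 166 to 172 CPM, below every library without the inhibitor, and Osmr at 360 min with 100 µM lies above the uninhibited libraries with IL-1β and overlaps them with TNF-α.

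The lower concentrations were compared with the same 0 µM libraries, so their values stand beside those at 100 µM and are not independent of them. With 25 µM, 5 of 9 members changed over the 5 times with IL-1β (edgeR F test, adjusted p under 0.05, 28.7% of all genes) and 7 of 9 with TNF-α (23.8% of all genes). With 50 µM, 7 of 9 changed with IL-1β (40.0% of all genes) and 7 of 9 with TNF-α (35.9% of all genes). Il6st, Socs2, Socs3 and Pim1 passed all 4 of these tests. At single times with IL-1β, 7 of 45 member-by-time tests were higher and 1 lower at 25 µM, where 4.57% and 5.10% of all gene-by-time tests were, and 9 were higher and 6 lower at 50 µM, where 7.23% and 9.29% were. With TNF-α, 11 were higher and 2 lower at 25 µM, where 3.22% and 4.27% were, and 10 were higher and 10 lower at 50 µM, where 5.47% and 8.58% were (edgeR).

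Socs3 at 120 min was higher at the low concentration and lower at the high one. With IL-1β at 120 min Socs3 had 88.7, 68.3, 91.9 and 74.3 CPM at 0 µM, 251, 113, 185 and 185 CPM at 25 µM, 175, 49.4, 130 and 116 CPM at 50 µM, and 44.6, 34.3, 38.3 and 31.0 CPM at 100 µM. With TNF-α at 120 min it had 142, 137, 111 and 116 CPM at 0 µM, 198, 310, 240 and 280 CPM at 25 µM, 247, 151 and 213 CPM in the 3 deep libraries at 50 µM, and 60.5, 100, 61.3 and 69.2 CPM at 100 µM. Under both labels every library at 25 µM lay above every library at 0 µM, and every library at 100 µM lay below them. The log2 change at 25 µM was 1.19 ± 0.24 with IL-1β (adjusted p = 7.95e-05) and 1.02 ± 0.23 with TNF-α (adjusted p = 0.000942, edgeR), and both calls held under all 11 alternatives. At 100 µM it was -1.12 ± 0.32 with IL-1β (adjusted p = 0.00359) and -0.80 ± 0.25 with TNF-α (adjusted p = 0.00851, edgeR). That IL-1β call held under all 11 alternatives, and the TNF-α call was lost without library number 1 or 3. At 15 min with 25 µM and TNF-α the change of Socs3 was 0.73 with all libraries (adjusted p = 0.0741) and 0.88 without the 3 farthest (adjusted p = 0.0262, edgeR). At 60 min Socs3 with 25 µM did not differ from 0 µM beyond the spread, at -0.01 ± 0.23 with IL-1β and -0.21 ± 0.23 with TNF-α. The group with the highest mean Socs3 of all 41 was 25 µM with TNF-α at 120 min, at 257 ± 48.5 CPM (SD, n = 4), and that with the lowest was 100 µM with IL-1β at 30 min, at 18.2 ± 5.96 CPM, a 14.1-fold range.

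**Figure D4:**
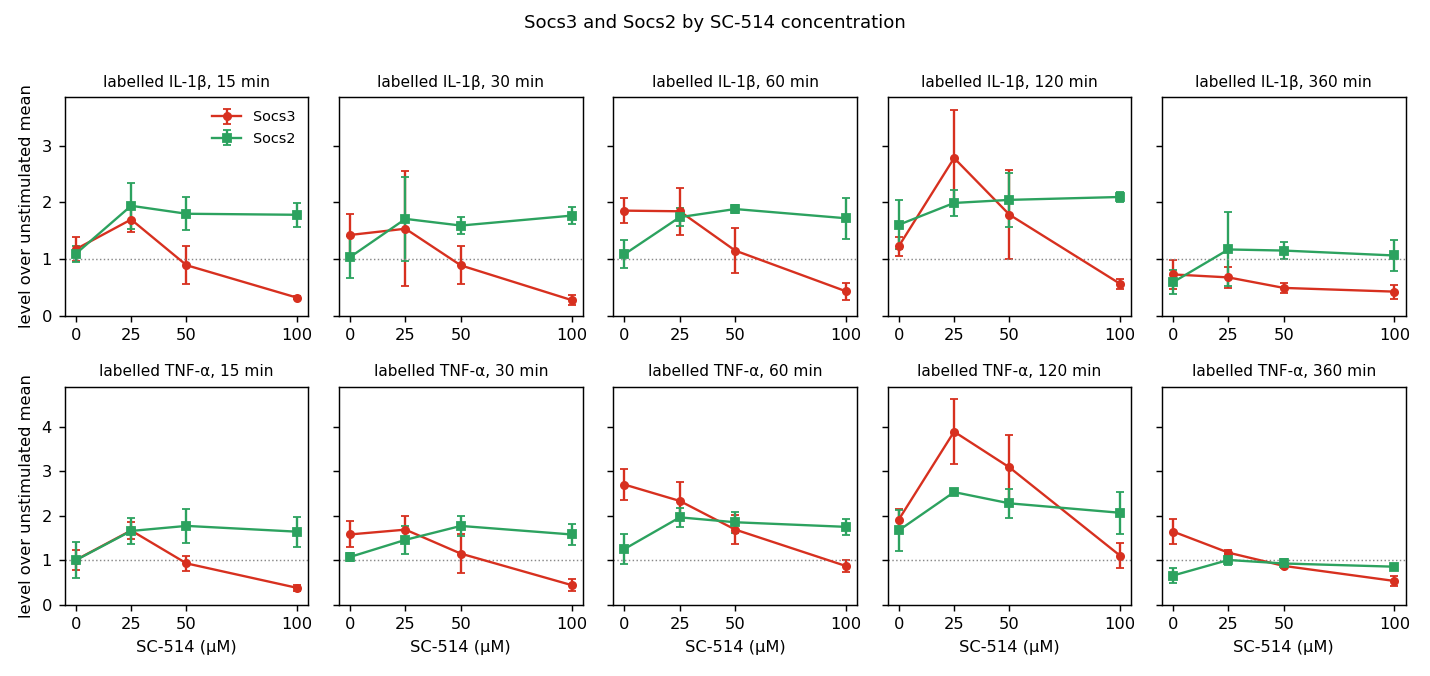
Level over the unstimulated mean (ratio, mean ± SD, vertical axes) of Socs3 and Socs2 against SC-514 concentration (µM) at each time, with IL-1β and TNF-α in separate panels. Socs3 at 120 min rises at 25 µM and falls at 100 µM, while the mean of Socs2 at 25, 50 and 100 µM lies above its 0 µM mean at all 5 times under both labels.

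Pim1 at 60 min went down in steps with concentration. With IL-1β it had 295, 221, 270 and 268 CPM at 0 µM, 151, 111, 150 and 147 CPM at 25 µM, 112, 105, 119 and 101 CPM at 50 µM, and 67.5, 80.6, 72.9 and 73.0 CPM at 100 µM. With TNF-α it had 310 to 385 CPM at 0 µM, 179 to 288 CPM at 25 µM, 140 to 214 CPM at 50 µM and 94.1 to 135 CPM at 100 µM. Under both labels the ranges at 25 and 50 µM overlapped, and those of the other neighbouring concentrations did not. The log2 change at 25 µM was -0.92 ± 0.13 with IL-1β (adjusted p = 3.13e-08) and -0.62 ± 0.13 with TNF-α (adjusted p = 0.000193, edgeR). At 120 min Pim1 with 25 µM was -0.11 ± 0.13 from the 0 µM level with IL-1β (adjusted p = 0.679) and 0.24 ± 0.13 from it with TNF-α (adjusted p = 0.311, edgeR).

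Socs2 was higher at 25 µM by about as much as at 100 µM. With IL-1β at 15 min it had 43.5, 59.7, 46.2 and 36.3 CPM at 25 µM (log2 change against 0 µM 0.82 ± 0.21, adjusted p = 0.00394, edgeR), beside 0.72 ± 0.22 at 50 µM and 0.70 ± 0.22 at 100 µM. At 360 min with IL-1β Socs2 had 51.3, 19.4, 22.0 and 19.1 CPM at 25 µM, and its call there (0.97 ± 0.26, adjusted p = 0.0119, edgeR) rests on library 1, which stands apart from its group. Without the 3 libraries farthest from their groups it was 0.51 (adjusted p = 0.332, edgeR). At 30 min with 25 µM and IL-1β, where library 4 stands apart, the change of Socs2 was 0.73 with all libraries (adjusted p = 0.0251) and 1.01 without those 3 (adjusted p = 3.11e-05, edgeR). Il6st with 25 µM was higher at 15 and 120 min with IL-1β, by 0.34 and 0.30, and at 15 to 120 min with TNF-α, by 0.31 to 0.43. Of these calls only that at 30 min with TNF-α held under all 11 alternatives, and the others were lost in 2 to 5. Without the 3 farthest libraries Il6st was also called at 25 µM with IL-1β at 30 min (0.36, adjusted p = 0.0185) and 60 min (0.27, adjusted p = 0.0462, edgeR). Lifr passed the test over the 5 times at 25 µM with IL-1β (adjusted p = 0.00386, edgeR F test) and was called at no single time at 25 µM with all libraries. Without the 3 farthest it was called with IL-1β at 30 and 60 min (0.78, adjusted p = 0.00231, and 0.51, adjusted p = 0.033) and with TNF-α at 15 min (0.93, adjusted p = 0.000854, edgeR). It was called at 50 µM at 30, 120 and 360 min with IL-1β (0.59 to 0.64) and at 120 min with TNF-α (0.64 ± 0.22, adjusted p = 0.0382, edgeR). The calls with IL-1β were lost in 4, 3 and 1 of 11 alternatives, and that with TNF-α in 3. At 15 min with TNF-α and 50 µM the change of Lifr was 0.29 with all libraries (adjusted p = 0.402) and 0.70 without the 3 farthest (adjusted p = 0.0154, edgeR).

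Stat3 at 25 µM passed the test over the 5 times with TNF-α (mean log2 change -0.13, adjusted p = 0.0197, edgeR F test) and was called at no single time. It was lower at 50 µM at 120 and 360 min with IL-1β and at 60, 120 and 360 min with TNF-α. The TNF-α calls at 60 and 120 min were lost in 6 and 5 of 11 alternatives, DESeq2 among them. After 360 min of TNF-α Stat3 had 276, 260, 238 and 277 CPM at 0 µM, 202, 252, 247 and 210 CPM at 25 µM, 193, 204, 205 and 203 CPM at 50 µM, and 169, 172, 171 and 166 CPM at 100 µM. The ranges at 0 and 25 µM overlapped, and so did those at 25 and 50 µM. Jak1 was higher with TNF-α at 25 µM at 30 min (0.27 ± 0.08), a call lost in 6 of 11 alternatives. It was also higher at 120 min, when it had 233, 270, 229 and 241 CPM against 218, 196, 163.7 and 174 CPM at 0 µM (0.36 ± 0.08, adjusted p = 0.000978, edgeR). Osmr rose with 50 µM and IL-1β at 360 min (0.46 ± 0.15, adjusted p = 0.0211, edgeR), and Pim3 rose with 25 µM and TNF-α at 120 min (0.54 ± 0.14, adjusted p = 0.0052, edgeR). With 50 µM and TNF-α Pim3 was lower at 60 min, at 86.4, 84.3, 69.3 and 98.6 CPM against 107, 94.2, 126 and 132 CPM (-0.43 ± 0.13, adjusted p = 0.00743, edgeR), and the groups overlapped. At 15 min the change was -0.42 ± 0.14 (adjusted p = 0.025) with all libraries and -0.32 (adjusted p = 0.173, edgeR) without the 3 farthest ones.

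**Figure D5:**
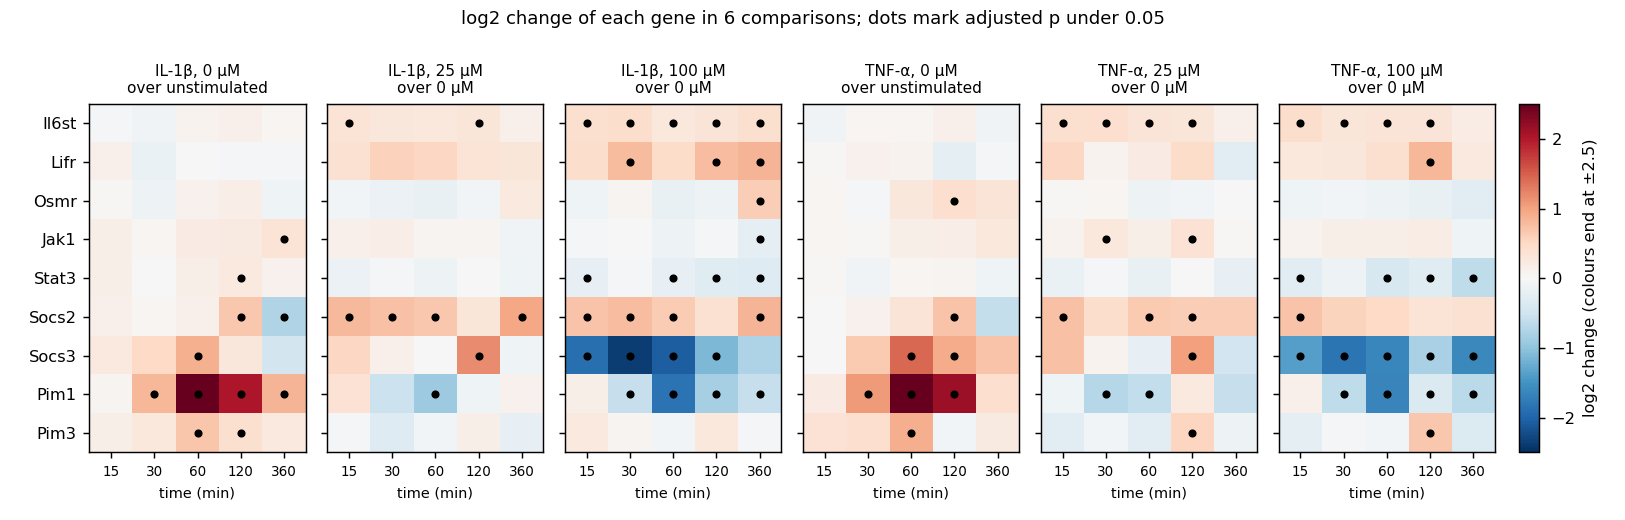
Log2 change of the 9 members (rows) at 5 times (columns) in 6 comparisons, stimulus over unstimulated and 25 and 100 µM over 0 µM SC-514 for each stimulus; colours end at ±2.5 and a dot marks an adjusted p under 0.05 (edgeR). Pim1 is highest at 60 min after stimulation. At 100 µM Socs3 is lower and Il6st is higher at all 5 times under both labels, and Pim1 is lower from 30 min on. Socs3 with IL-1β and Il6st with TNF-α have no dot at 360 min for 100 µM.

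Set against each other without SC-514, IL-1β and TNF-α differed in 4 of the 9 members over the 5 times (Stat3, Socs3, Pim1 and Pim3, edgeR F test, where 9.56% of all genes were called), and DESeq2 called 1. Socs3 at 360 min had 72.1, 31.3, 42.7 and 46.0 CPM with IL-1β, against 87.8, 118, 99.1 and 130 CPM with TNF-α. The groups did not overlap and Socs3 was lower with IL-1β (log2 difference -1.17 ± 0.29, adjusted p = 0.00212, edgeR, where 3.66% of all genes were lower). Pim1 at 60 min was 0.731-fold as high with IL-1β as with TNF-α (adjusted p = 0.0335, edgeR, where 1.12% of all genes were lower), a call lost with RLE factors and without any 1 of the 4 library numbers. The effect of 100 µM over the 5 times did not pass the test for a difference between the labels in any member: edgeR's F test called 0 of 9, where 4.68% of all genes were called, with 4 of 9 at an unadjusted p under 0.05, and DESeq2 called 0.

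Levels of the members across the 41 groups ran together in part, as a description of group means that share libraries and depth. Il6st had a Pearson r of 0.797 with Lifr and 0.795 with Socs2 over the 41 group means, and Pim1 had 0.693 with Pim3 and 0.605 with Socs3. Among all genes tested, the means most like those of Pim1 were those of Rnd1 (r = 0.944), Ccl20 (0.939) and Ptgs2 (0.933). The means most like those of Socs3 were those of Akap12 (0.847), Cebpb (0.837) and Areg (0.837), and those most like Socs2 were Fgfr2 (0.912), Ube2h (0.911) and Atxn1 (0.899). For Il6st they were Il17ra (0.895), Ppp3ca (0.894) and Jdp2 (0.890), and for Stat3 Tmem173 (0.865), Hmgcs1 (0.850) and Gpx1 (0.844).

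The ligands of gp130 moved more than its receptor chains. Of 9 cytokines of the gp130 family, 5 passed the filter, and 3 of them, Lif, Il6 and Il11, were higher than in unstimulated cells at 60, 120 and 360 min under both labels (edgeR). The share of all genes higher at those times was 2.74%, 8.17% and 12.3% with IL-1β and 4.15%, 9.14% and 3.62% with TNF-α. The median log2 change of the 5 at 60 min was 1.42 with IL-1β and 1.41 with TNF-α, against 0.00 over all genes in each. At 60 min Lif averaged 468 ± 43.8 CPM with IL-1β and 770 ± 17.3 CPM with TNF-α, against 41.9 ± 10.5 CPM unstimulated (SD, n = 4 each). Il6 at 60 min averaged 245 ± 39.2 CPM with IL-1β and 301 ± 29.5 CPM with TNF-α, against 11.7 ± 5.67 CPM unstimulated. With 100 µM SC-514 at 60 min Il6 averaged 10.8 ± 4.24 CPM with IL-1β and 12.1 ± 5.17 CPM with TNF-α, near the unstimulated level. Lif kept more, at 240 ± 48.1 CPM with IL-1β and 413 ± 88.7 CPM with TNF-α (log2 change against 0 µM -0.96 ± 0.17 and -0.91 ± 0.16, edgeR adjusted p = 3.90e-06 and 3.43e-06).

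Some other genes of the pathway moved as well. Jak2, Cish and Socs1 were picked from their lists by smallest adjusted p, so their changes do not describe the other genes tested. Among 8 tested of 9 other JAKs and STATs, Jak2 was higher at 120 min by 1.28 ± 0.12 with IL-1β and 1.67 ± 0.12 with TNF-α. Jak2 fell with 100 µM SC-514 at that time, by a log2 change of -0.63 ± 0.12 under IL-1β (adjusted p = 4.02e-06) and -0.73 ± 0.11 under TNF-α (adjusted p = 4.17e-09, edgeR). Among 15 tested of 17 other negative regulators, Cish, which damps STAT5 signals, was 2.23 ± 0.24 higher at 60 min with IL-1β and 2.51 ± 0.24 higher with TNF-α, and Socs1, an inhibitor of JAK kinases, was 1.47 ± 0.30 and 1.47 ± 0.31 higher. Of 16 known STAT3-regulated genes, 11 were higher at 120 min with IL-1β and 13 with TNF-α, where 8.17% and 9.14% of all genes were higher, and the median log2 change of the list was 0.74 and 0.87, against -0.01 and -0.02 over all genes. With 100 µM at 120 min 9 of the 16 were lower with IL-1β and 11 with TNF-α, where 16.2% and 15.0% of all genes were lower, and the median of the list was -0.47 and -0.78, against 0.03 over all genes in each. Junb, an AP-1 subunit in that list, went the other way at 120 min: with 100 µM it was higher than without the inhibitor by 1.54 ± 0.15 with IL-1β and 1.62 ± 0.15 with TNF-α (edgeR adjusted p = 2.66e-16 and 1.05e-16). Many genes of this list are also known NF-κB targets, so the list does not separate the pathways. This list and the other pathway lists were chosen with earlier results of these data known. Their counts beside the share of all genes are therefore a description and not an independent test.

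Over the 41 groups the mean level varied least in Jak1 (1.45-fold between the lowest and highest group) and Il6st (1.48-fold), then Osmr (1.88-fold), Stat3 (1.96-fold), Pim3 (2.11-fold), Lifr (2.22-fold), Socs2 (4.29-fold), Pim1 (10.5-fold) and Socs3 (14.1-fold). The strand setting of the counting is not given in the sources used here. Stat3 overlaps Stat5a on the other strand by 72 exonic bases and Jak1 overlaps Raver2 by 4, and reads in those stretches could be split between the genes.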

How the data were processed

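Total RNA of 3T3 cells was measured by TagSeq. The deposited table holds raw counts per Ensembl gene, which the authors made; the reads were aligned with Bowtie2 to GRCm38 (mm10), per the submitters' processing notes. For the counting tool and its strand setting the sources used here give nothing. The 656 records describe the libraries, 4 records to a library and 4 libraries to each of 41 groups. Of 246 within-group pairs 0 were identical. Symbols came from the reference annotation, which matched 21878 of 22070 IDs.

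Counts were tested with edgeR 4.0.16 (R 4.3.3): TMM factors, filterByExpr by group, 1 robust quasi-likelihood fit over the 41 groups (123 residual degrees of freedom), Benjamini-Hochberg adjustment over the 10766 genes within each comparison and a threshold of 0.05. Differences at 1 time were tested as contrasts, and those over 5 times with an F test. The script was tested on simulated data. Alternatives were RLE factors, no filter, DESeq2 1.42.0, library number as a block, and leaving out libraries. The genes described and the pathway lists were chosen with earlier results of these data known. Named pathway genes are at most 3 a list and comparison, by smallest adjusted p. Likeness to a member is Pearson's r over the 41 group means of log2 levels. The median count in deep libraries was lowest for Socs2, at 47.5, which limits its precision, and the CPM of 3 counts ran from 1.21 to 3.23 in the deep libraries.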

Additional observations from a re-analysis of the deposited data

Results flagged for a closer look

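In each group of 4 libraries the highest or lowest library was set against the other 3, and 23 of 369 member-by-group checks had 1 library far from the rest (Dixon's test); chance alone gives about 1 in 20. In 4 of the 23 the library is one of the 2 shallow ones: library 1 of 50 µM with TNF-α at 120 min had 0 CPM of Lifr, Stat3 and Pim3, which were not detectable at 3839 counts, and library 1 of 50 µM with IL-1β at 30 min had 113 CPM of Stat3, against 254 to 260 CPM in the others.

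Of the rest, 4 lie in the 3 libraries farthest from their groups. Library 1 of 25 µM with IL-1β at 360 min had 51.3 CPM of Socs2, against 19.1 to 22.0 CPM in the others, and 133 CPM of Pim1, against 66.3 to 76.7 CPM. Library 4 of 25 µM with IL-1β at 30 min had 14.4 CPM of Socs2, against 46.6 to 51.4 CPM. Library 4 of TNF-α without inhibitor at 15 min had 314 CPM of Stat3, against 274 to 280 CPM.

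High single libraries were also found for Il6st (249 CPM at 100 µM with TNF-α at 30 min and 265 CPM at 25 µM with TNF-α at 120 min), Lifr (139 CPM at 25 µM with IL-1β at 15 min) and Osmr (127 CPM at 0 µM and 111 CPM at 50 µM with IL-1β at 15 min). So they were for Socs3 (27.1 CPM at 100 µM with IL-1β at 30 min and 212 CPM at 0 µM with TNF-α at 60 min) and Pim1 (124 CPM at 100 µM with IL-1β at 120 min and 61.9 CPM at 0 µM with TNF-α at 15 min). Low single libraries were found for Il6st (208 CPM at 50 µM with TNF-α at 60 min), Lifr (70.7 CPM at 50 µM with TNF-α at 360 min) and Osmr (86.1 CPM at 100 µM with IL-1β at 120 min). The others were Socs2 (18.2 CPM at 50 µM with TNF-α at 360 min) and Pim1 (111 CPM at 25 µM with IL-1β at 60 min and 32.9 CPM at 50 µM with TNF-α at 15 min).

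The stimuli differed without SC-514 in 4 members over the 5 times, by the F test of the difference (edgeR). At the time of the widest gap, the log2 difference of IL-1β minus TNF-α was 0.21 in Stat3 (360 min), -0.45 in Pim1 (60 min), 0.47 in Pim3 (120 min) and -1.17 in Socs3 (360 min). Osmr passed the test at 360 min alone, by -0.43 (adjusted p = 0.0497, edgeR), and that call was lost in 6 of 11 alternatives. The effect of 100 µM SC-514 on Osmr at 360 min was 0.87 higher with IL-1β than with TNF-α.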

How the results depend on the processing

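Over 540 tests of a member at 1 time, 173 were called, and 72 of these stayed called under all 11 alternatives. No called change turned its direction. Leaving out every library of 1 number lost 31 to 73 calls, DESeq2 lost 32 of 172, no filter lost 12 and gained 41, and RLE factors lost 10 and gained 13. The alternative without the 3 libraries farthest from their groups was chosen after seeing the data; it lost 3 calls and gained 17. Leaving out the 2 shallow libraries lost 3, and leaving out number 1 of IL-1β with 100 µM at 120 and 360 min, which showed counts in more genes than the rest of their groups, lost 5. The cause was not tested for any of these shifts, except that fewer libraries enter when some are left out.

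For 18 counts of member calls, 175 of the values under an alternative lay within 1.5 times the count given and 23 did not. Of IL-1β without SC-514 against unstimulated cells, DESeq2 called 6 higher, no filter gave 2 lower, and leaving out numbers gave 6 to 7 higher and 0 to 1 lower. Higher calls for 100 µM against 0 µM were 5 to 15 with IL-1β and 4 to 8 with TNF-α without 1 number, and 11 with TNF-α under RLE factors. For 100 µM against unstimulated cells, leaving out numbers gave 11 to 18 higher and 3 to 5 lower with IL-1β and 9 to 18 higher and 4 to 7 lower with TNF-α, where no filter and DESeq2 each gave 5 lower. Members that differed between the stimuli numbered 1 with DESeq2 and 0 to 3 without 1 number. The effect of 100 µM differed between the stimuli in 3 members without the filter and in 1, Osmr, without the 3 libraries.

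With library number as a replicate block, 0 of the 173 calls were lost and 8 were gained, and IL-1β without SC-514 had 11 higher calls. Same-numbered libraries were at most weakly alike: in 0 of 55 comparisons did every same-numbered pair of deviations correlate above 0.1, and the median of the mean r was 0.041. In 6 comparisons all 4 libraries correlated best with their own number. Each of the 6 set SC-514 against no inhibitor within a label, so a weak pairing by number within a label remains possible. The block gave each number an effect shared by both labels, and so does not test a pairing within a label. In the deep libraries the median count was lowest for Socs2, at 47.5, which limits its precision most by counting error.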
